A study of Mus musculus with 6 samples.

Results

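Semaphorins, plexins and neuropilins were followed in the newborn mouse cortex after loss of Slc7a5, the amino acid transporter subunit whose floxed alleles were deleted with Emx1-driven Cre. The members are the protein-coding genes whose GENCODE M21 symbols name a semaphorin of classes 3 to 7, a plexin of groups A to D, Nrp1 or Nrp2, a rule that uses no measured value. They number 31 of the 52550 genes counted: 20 semaphorin ligands, and 11 receptors made up of 9 plexins and 2 neuropilins. Polyadenylated RNA was sequenced from 1 cortical hemisphere per library at postnatal day 2, in mice labelled C57BL6/J. The 3 knockout libraries came from Slc7a5fl/fl; Emx1Cre+ pups and the 3 control libraries from Slc7a5fl/fl; Emx1Cre- pups, so both groups carry the floxed alleles and Cre is present in the knockouts alone. Effects of the Cre allele and of the deletion cannot be told apart here. Emx1 directs Cre to the dorsal forebrain progenitors that produce excitatory neurons and astrocytes, so endothelial cells, microglia and most interneurons of the tissue keep Slc7a5. The titles give each group the letters A, B and C.

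Semaphorins are guidance cues that share an extracellular sema domain. Class 3 members are secreted and mostly bind a neuropilin, which passes the signal to a plexin A partner, whereas classes 4 to 6 span the membrane and class 7 is held by a lipid anchor, and these mostly bind plexins without a neuropilin. Plexins carry a GTPase-activating domain that acts on small Ras-like GTPases, and through it and the actin machinery a growth cone turns, stops or prunes. In the developing cortex the family is known for steering axons and dendrites of projection neurons, for the migration of interneurons, and, through Plxnd1 and the neuropilins, for the growth of blood vessels.

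The libraries held 8249436 to 10372582 gene counts. Slc7a5 was at 20.2 to 40.7 CPM (a gene's count as parts per 1e+06 of the TMM-scaled library) in controls and 9.37 to 15.6 CPM in knockouts, and did not pass the test used here (adjusted p = 0.400). Markers of cortical projection neurons summed to 2816 to 3155 CPM in controls and 2718 to 3069 CPM in knockouts, with Emx1 itself at 13.6 to 25.4 and 7.92 to 10.9 CPM. Both libraries of letter B carried Xist at 918 and 961 CPM, against at most 2.95 CPM in the others. Ttr, a choroid plexus transcript, stood at 144 CPM in control B, 27.2 CPM in knockout C and at most 4.27 CPM elsewhere. Meningeal fibroblast markers summed to 25.8 and 27.7 CPM in the 2 libraries of letter A and to 88.6 to 169 CPM in the other 4. Reads on no annotated exon of the strand counted were 22.5 to 26.5% of mapped reads in controls and 27.4 to 27.9% in knockouts, with no overlap. They include reads on exons of the opposite strand. The part of these differences between libraries in the values that follow was not tested, except where a library is left out.

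The family was expressed almost whole, over a wide range of levels. Levels between genes were compared as CPM per kilobase of annotated exon, averaged over the 6 libraries. Sema4c, a membrane semaphorin that binds plexin B2, led all members at 33.2, followed by the lipid-anchored Sema7a at 23.4 and the membrane-spanning Sema6c at 15.6. Receptors were more even: Nrp2, the co-receptor of Sema3f, was highest at 14.5, then Plxna4 at 13.5 and Plxna2 at 12.2, and the other tested receptors lay between 5.01 for Plxnc1 and 9.80 for Plxna3. Among the secreted ligands Sema3f stood at 5.78, the repellent Sema3a at 4.01 and Sema3c at 3.25, while Sema3e, Sema3d and Sema3b were at 0.912, 0.754 and 0.576. Sema3g and Plxnb3, at 4 to 10 and 0 to 6 counts per library, were under the filter on low counts and were not tested, which left 19 ligands and 10 receptors. Sema3d, Sema3a, Sema3e and Sema3c lie on the same chromosome, 5, within 5347 kb (GRCm38), yet their levels per kilobase ran from 0.754 to 4.01.

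**Figure D1:**
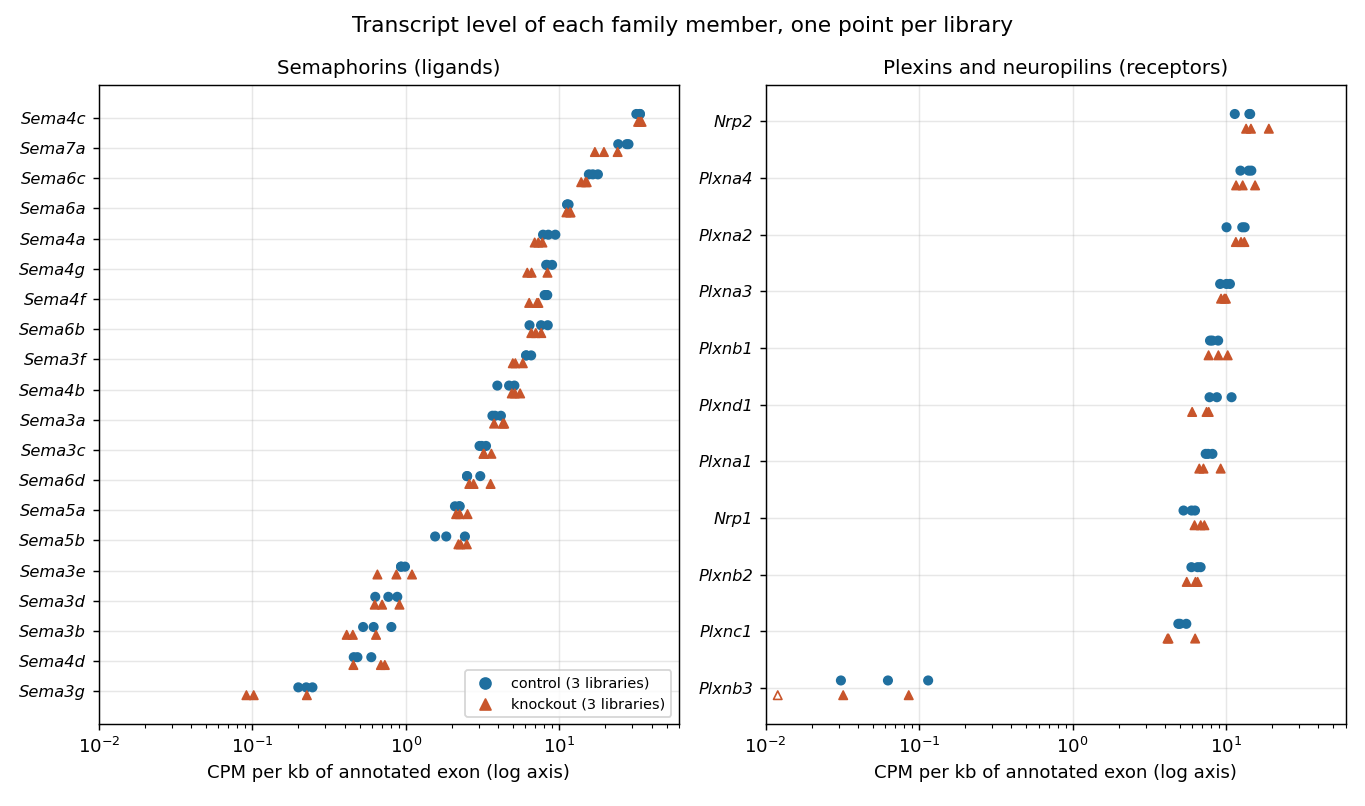
Level of each member as CPM per kilobase of annotated exon on a log axis, with a circle for each of the 3 control libraries and a triangle for each of the 3 knockout libraries. Sema4c and Sema7a lead the ligands, receptors other than Plxnb3 lie close together, and the open triangle at the left edge marks the knockout library in which Plxnb3 was at 0.

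No ligand or receptor passed edgeR's quasi-likelihood test between genotypes at an adjusted p under 0.05 (0 of 19 and 0 of 10), where 0.0335% of all 14913 genes tested did. DESeq2 called none of them either, against 0.174% of these genes. At an unadjusted p under 0.05 there were 3 ligands and 1 receptor, all lower in the knockout, against 7.00% of all genes (3.81% lower). With the letter as a replicate block, 1 ligand, Sema7a, passed and fell, and no receptor did, beside 0.845% of all genes (0.516% lower). The knockout libraries lay wholly below the controls for 5 ligands (Sema7a, Sema4f, Sema4a, Sema3f and Sema6c) and for 1 receptor (Plxnd1), and wholly above them for no member. Over all genes, 6.28% lay wholly below and 5.89% wholly above. The median log2 change was -0.02 for the ligands and -0.02 for the receptors, beside 0.00113 for all genes tested, with 10 of 19 ligands and 6 of 10 receptors below 0, beside 49.8% of all genes. With 1 library left out at a time the medians took either sign, from -0.06 to 0.03 for ligands and from -0.09 to 0.04 for receptors. Of the 29 tested members, 11 changed sign with some library left out, 12 kept it but moved by over 1.5 times, and 6 stayed within 1.5 times of their estimate (Sema7a, Sema4f, Sema4a, Sema3f, Sema6c and Nrp1).

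**Figure D2:**
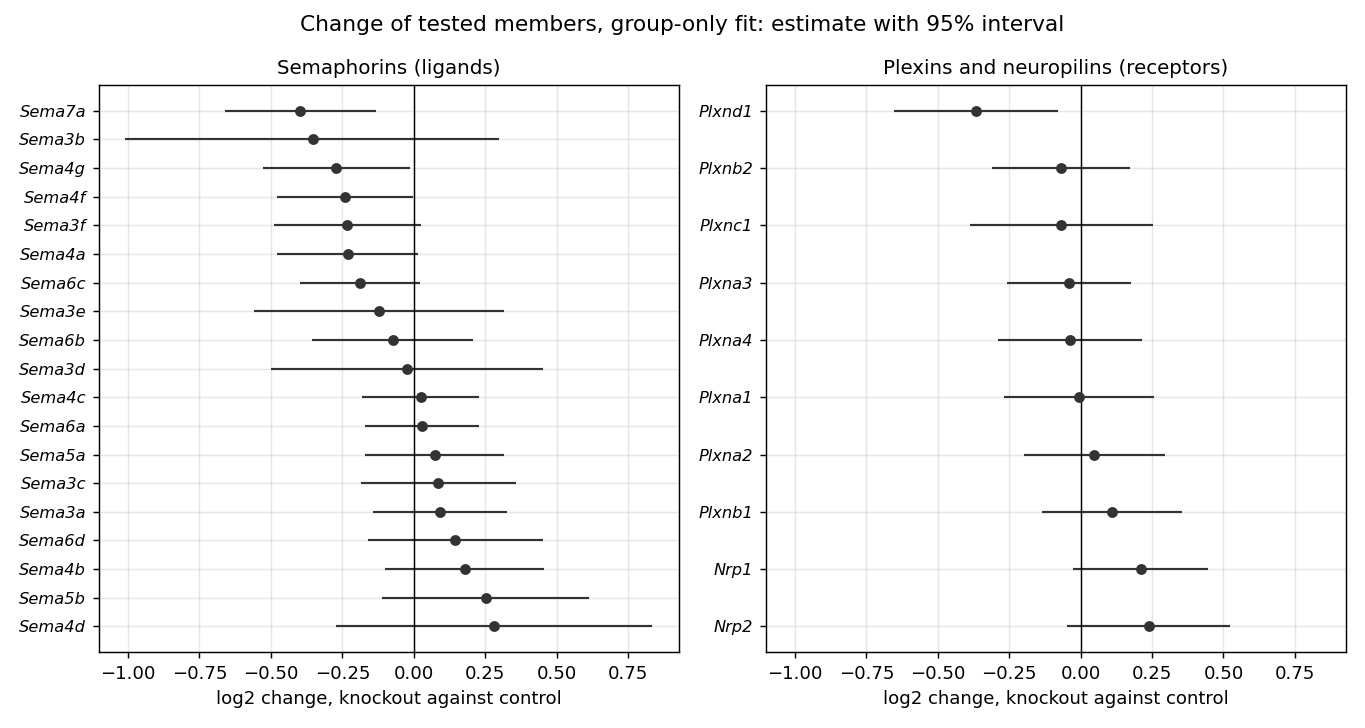
Log2 change of the 29 tested members, knockout against control, with its 95% interval from the group-only fit (intervals are not adjusted for the number of genes). Sema7a has the lowest ligand estimate and Plxnd1 the lowest receptor estimate, and most other intervals include 0.

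Sema7a had the smallest p of all members. It encodes a semaphorin that binds integrin beta 1 and plexin C1 and is known for promoting axon growth. The gene (ENSMUSG00000038264) lies on the plus strand of chromosome 9, from 57940112 to 57962865 in GRCm38. Controls A, B and C held Sema7a at 79.9, 93.2 and 90.7 CPM, whereas their knockout counterparts held 64.5, 79.2 and 56.3 CPM. Every knockout lay below every control, although knockout B and control A were nearly level. The log2 change was -0.40 ± 0.13 (SE), with an adjusted p of 0.480 in the group-only fit. With the replicate block it was -0.41 ± 0.10 and passed (adjusted p = 0.0375). That call held without letter B (-0.49, adjusted p = 0.00353) and without letter A (-0.45, adjusted p = 0.0388), and was lost without letter C (-0.27, adjusted p = 0.664), whose pair differed most. Over all genes the block fit called 126 of 14913 with all letters. It called more without letter B (161 of 14966) or letter A (228 of 15024), and fewer without letter C (77 of 15026). For Sema7a, DESeq2 with the block gave an adjusted p of 0.276. In bulk tissue, fewer cells of a type and less RNA per cell cannot be told apart.

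Plxnd1 was the receptor with the smallest p. It encodes the plexin that Sema3e engages without a neuropilin, and is expressed in endothelium as well as in neurons. The gene (ENSMUSG00000030123) lies on the minus strand of chromosome 6, from 115954811 to 115995005. For letters A, B and C in turn, Plxnd1 stood at 63.6, 79.3 and 57.0 CPM in the controls, while the knockouts had 56.3, 54.5 and 43.9 CPM. All knockouts were below all controls, though knockout A and control C were close in value. The log2 change was -0.37 ± 0.14 (adjusted p = 0.599; 0.0765 with the replicate block), and -0.22 without control B, the highest library. Its ligand Sema3e showed no such separation: 8.66, 9.18 and 8.66 CPM in controls and 6.07, 8.07 and 10.2 CPM in knockouts, a log2 change of -0.12 ± 0.21.

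Several lists of cell type markers had most of their estimates on the same side of 0 as Sema7a and Plxnd1. Of 10 upper-layer markers 9 were lower in the knockout (median log2 change -0.19), where 49.8% of all genes were, and their summed level was 2784 to 3105 CPM in controls and 2477 to 2610 CPM in knockouts. None passed in the group-only fit and 2 passed with the block, beside 0.845% of all genes. Oligodendrocyte markers were lower in 7 of 8 cases, with sums of 282 to 334 CPM in controls and 251 to 270 CPM in knockouts, again without overlap. Deep-layer markers were lower in 7 of 10 and general projection neuron markers in 5 of 8, and the sums of both lists overlapped between genotypes. Both lists hold Bcl11b, Fezf2 and Tbr1. Of the general projection neuron markers 3 passed with the block, among them Emx1. As Emx1 also drives Cre, present in the knockouts alone, effects of the Cre allele and of cell content cannot be told apart for it. Endothelial markers had the opposite sign in 7 of 9 cases, with sums of 169 to 200 CPM in controls and 190 to 215 CPM in knockouts. The sums of progenitor markers (333 to 381 against 389 to 417 CPM) and of mural cell markers (119 to 127 against 134 to 148 CPM) were wholly higher in the knockouts. Estimates were also mostly lower for markers of red cells (5 of 5), striatum (6 of 8) and thalamus (3 of 4). Astrocyte markers were lower in 5 of 8 cases, with sums of 631 to 734 CPM in controls and 643 to 736 CPM in knockouts. Choroid plexus markers were lower in 2 of 2 tested. Their sums were 2.01 to 150 CPM in controls and 4.84 to 29.8 CPM in knockouts, the highest being control B, with Ttr at 144 CPM. Markers of microglia (8 of 9), mural cells (4 of 6) and meningeal fibroblasts (4 of 4 tested) were mostly higher. The part of these cell classes in the levels of Sema7a and Plxnd1 was not tested.

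The 250 bases before the start sites of Sema7a and Plxnd1 are shown because these are the ligand and the receptor with the lowest p (RefSeq, GRCm38.p6, 5′ to 3′ on the strand of the gene). Capitals mark GC boxes, GGGCGG or CCGCCC on either strand, the motif bound by Sp-type factors. Sema7a is chr9:57939862-57940111 on the plus strand and Plxnd1 is chr6:115995006-115995255 on the minus strand.
Sema7a: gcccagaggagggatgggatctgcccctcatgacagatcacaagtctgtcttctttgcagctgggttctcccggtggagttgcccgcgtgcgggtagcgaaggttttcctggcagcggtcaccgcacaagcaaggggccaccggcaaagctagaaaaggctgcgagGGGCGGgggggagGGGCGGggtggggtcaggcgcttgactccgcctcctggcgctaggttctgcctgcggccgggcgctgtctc
Plxnd1: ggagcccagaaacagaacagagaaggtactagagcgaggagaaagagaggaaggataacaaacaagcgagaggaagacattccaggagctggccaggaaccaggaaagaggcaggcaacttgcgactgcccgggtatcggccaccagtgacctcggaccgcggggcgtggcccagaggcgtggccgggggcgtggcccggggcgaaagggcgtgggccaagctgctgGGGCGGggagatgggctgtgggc
The Sema7a stretch holds 2 GC boxes and the Plxnd1 stretch 1. Promoter windows of 300 bases (250 before and 50 after a start) were found for 26 of the 31 members, 37 windows in all. A GC box was present in 27 of the 37, against 35.7% of 32851 windows of all genes, and the members' windows had a median GC content of 63.7% against 52.7%. The letters TATAAA were in 0 of the 37 windows on either strand (13.6% of all windows), the cAMP response element TGACGTCA in 0 (1.79%), and TGATGCAA, a sequence bound by ATF4, in 0 (0.895%). A match is a description of the letters and not a measured site.

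The class 4 ligands, membrane proteins that signal through B-type plexins and other receptors, did not share 1 direction. In the order A, B, C, which holds for all values per library here, Sema4g was at 71.2, 72.2 and 77.8 CPM in controls and 57.2, 53.6 and 72.6 CPM in knockouts, with a log2 change of -0.27 ± 0.12 (adjusted p = 0.708). Knockout C reached into the range of the controls, while knockouts A and B lay well below it. The estimate for Sema4g was -0.41 without knockout C and -0.18 without knockout B. Sema4f was at 43.6, 42.5 and 44.2 CPM in controls and 38.7, 37.9 and 33.7 CPM in knockouts. Its controls were the second most alike of all tested members, with a coefficient of variation of 1.93%, and the groups did not overlap (-0.24 ± 0.11, adjusted p = 0.712). Sema4a, also known as a ligand in immune cells, was at 45.9, 42.4 and 51.0 CPM in controls and 37.4, 39.5 and 42.0 CPM in knockouts (-0.23 ± 0.12, adjusted p = 0.731). The lowest control and highest knockout of Sema4a were almost equal. Sema4c, the member with the highest level per kilobase, was at 146, 154 and 154 CPM against 150, 154 and 158 CPM. Its log2 change was 0.02 ± 0.10, with a 95% interval from -0.18 to 0.23. Sema4b (0.18 ± 0.13) and the plexin B1 ligand Sema4d (0.28 ± 0.26) had positive estimates, Sema4d on only 30 to 57 counts per library.

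Among the secreted class 3 ligands, Sema3f had the smallest p. This repellent acts through Nrp2 on migrating interneurons and growing axons. Sema3f was at 31.6, 34.1 and 31.7 CPM in controls and 26.9, 25.9 and 30.1 CPM in knockouts, without overlap (-0.23 ± 0.12, adjusted p = 0.737). Knockout C was the one closest to the controls. Sema3a, the Nrp1 ligand that repels axons, had 0.09 ± 0.11 and a 95% interval from -0.14 to 0.33, and Sema3c, an attractant for callosal axons, had 0.09 ± 0.13. The estimates of Sema3b (-0.35 ± 0.31), Sema3d (-0.02 ± 0.22) and Sema3e rest on 19 to 98 counts per library and their intervals were wide. Summed over its 7 members, class 3 stood at 128 ± 5.96 CPM in controls and 127 ± 5.18 CPM in knockouts (SD, n = 3).

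Class 5 and class 6 ligands span the membrane, and class 6 members signal through plexin A receptors. Sema6c was at 98.2, 106 and 92.6 CPM in controls and 88.0, 89.6 and 82.5 CPM in knockouts (-0.19 ± 0.10, adjusted p = 0.747). The 3 same-letter differences of Sema6c were alike, -0.16, -0.24 and -0.17 on the log2 scale. Sema6a, a ligand of plexins A2 and A4, had 0.03 ± 0.09 with an interval from -0.17 to 0.23. Sema6b (-0.07 ± 0.13) and Sema6d (0.15 ± 0.14) did not pass either. Sema5a and Sema5b, which carry thrombospondin repeats and limit neurite outgrowth, had 0.07 ± 0.11 and 0.25 ± 0.17.

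Summed over all 20 ligands, the level was 860, 881 and 877 CPM in controls and 815, 839 and 826 CPM in knockouts, so that the groups did not overlap. Without Sema7a the sums were 781, 787 and 786 CPM against 751, 760 and 769 CPM, still apart. The 11 receptors summed to 1025, 1019 and 960 CPM in controls and 982, 1065 and 1027 CPM in knockouts, with overlap. These sums describe the 6 libraries under TMM scaling and were not tested. Under that scaling all genes tested summed to 1012281, 1021229 and 1009081 CPM in controls. Their sums in knockouts were 1011655, 959673 and 987402 CPM. With upper quartile scaling the median log2 change over all genes was 0.0383, against 0.00113 with TMM, and the ligand median was 0.0153.

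**Figure D3:**
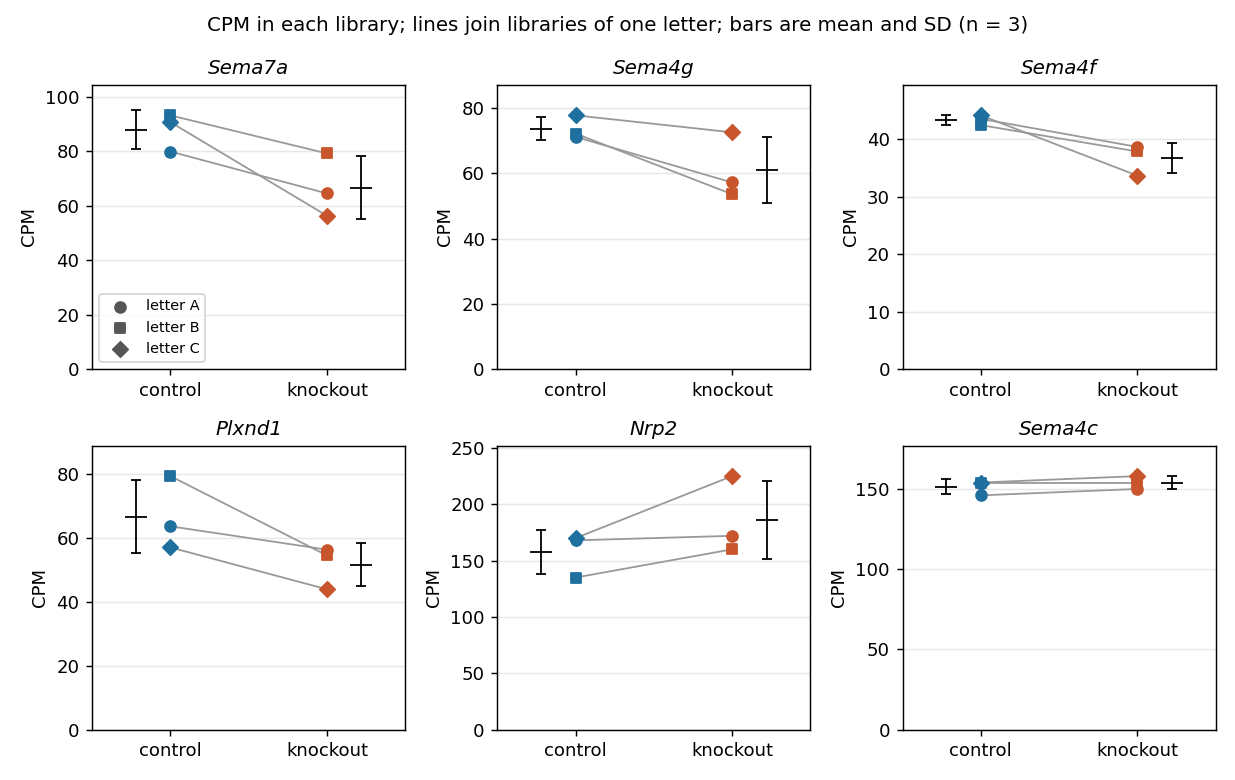
CPM of 6 members in each library, with lines joining the control and the knockout of a letter and bars for the mean and SD of each genotype (n = 3). Sema7a, Sema4f and Plxnd1 separate by genotype, Sema4g and Nrp2 overlap, and Sema4c stays between 146 and 158 CPM.

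Both neuropilins, the ligand-binding co-receptors of the class 3 semaphorins and of vascular growth factor, had positive estimates. Nrp1 stood at 58.3, 51.7 and 61.4 CPM in controls and 61.0, 66.9 and 70.7 CPM in knockouts (0.21 ± 0.11, adjusted p = 0.747). Nrp2 was at 168, 135 and 170 CPM in controls and 172, 160 and 225 CPM in knockouts (0.24 ± 0.13, adjusted p = 0.776). Each neuropilin was higher in the knockout of every letter, but for both the lowest knockout lay within the controls. Without knockout C the estimate for Nrp2 was 0.07. Interneuron markers, of a cell class known to express neuropilins, were higher in 9 of 10 cases, where 7490 of all 14913 genes tested were. Of the 10, 1 passed with the block, beside 0.845% of all genes. Their sums were 1510 to 1627 CPM in controls and 1563 to 1921 CPM in knockouts, with overlap. Markers of endothelium (7 of 9), progenitors (7 of 8), mural cells (4 of 6), microglia (8 of 9) and meningeal fibroblasts (4 of 4 tested) were also mostly higher. Lists with mostly lower estimates are given above. Whether any of these cells have a part in the neuropilin values was not tested.

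Plexins other than Plxnd1 had estimates near 0. The A-type plexins, which carry class 3 and class 6 signals, ranged from -0.04 for Plxna3 to 0.05 for Plxna2. Plxna4 stood at 198, 206 and 175 CPM in controls and 181, 218 and 164 CPM in knockouts (-0.04 ± 0.12). Plxna2 was at 227, 219 and 173 CPM in controls and 215, 226 and 199 CPM in knockouts (0.05 ± 0.12). For each gene the ranges of the genotypes overlapped, with the controls of Plxna2 and the knockouts of Plxna4 the more spread out, and the 95% intervals ran from -0.29 to 0.21 and from -0.20 to 0.29. Plxna1 and Plxna3 had -0.01 ± 0.12 and -0.04 ± 0.10.

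Plxnb1, the receptor of Sema4d, was at 78.0, 75.4 and 85.2 CPM in controls and 85.5, 73.8 and 98.3 CPM in knockouts (0.11 ± 0.12). Plxnb2, which acts in neural progenitors and migrating neurons, was at 45.9, 52.7 and 50.4 CPM in controls and 42.8, 50.4 and 48.8 CPM in knockouts (-0.07 ± 0.11). The 3 knockouts of Plxnb2 were each below the control of their letter (log2 ratios of -0.10, -0.07 and -0.05), and 2 of them lay within the range of the controls. Plxnc1, the plexin of Sema7a, was at 40.8, 46.0 and 41.8 CPM in controls and 34.7, 52.5 and 35.2 CPM in knockouts (-0.07 ± 0.15). Knockout B was the highest of all 6 libraries for Plxnc1 and the other 2 knockouts the lowest. Itgb1, the integrin partner of Sema7a, had 0.14 ± 0.12.

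Several members varied with the letter in both genotypes. The same letter was highest in both genotypes for 10 of 19 ligands and 7 of 10 receptors, against 41.4% of all genes tested. Letter B was highest in both for Plxna3, Plxna4, Plxnb2 and Plxnc1 among receptors and for Sema3b, Sema6b, Sema6c and Sema7a among ligands, and lowest in both for Nrp2, Plxnb1, Sema4b and Sema5b. Over all genes tested, letter B was highest in both genotypes for 14.6% and lowest in both for 15.5%. Relative to the control of the same letter, 7 ligands and 2 receptors were lower in all 3 knockouts and 3 ligands and 2 receptors higher. The shares over all genes were 16.8% lower and 16.2% higher.

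**Figure D4:**
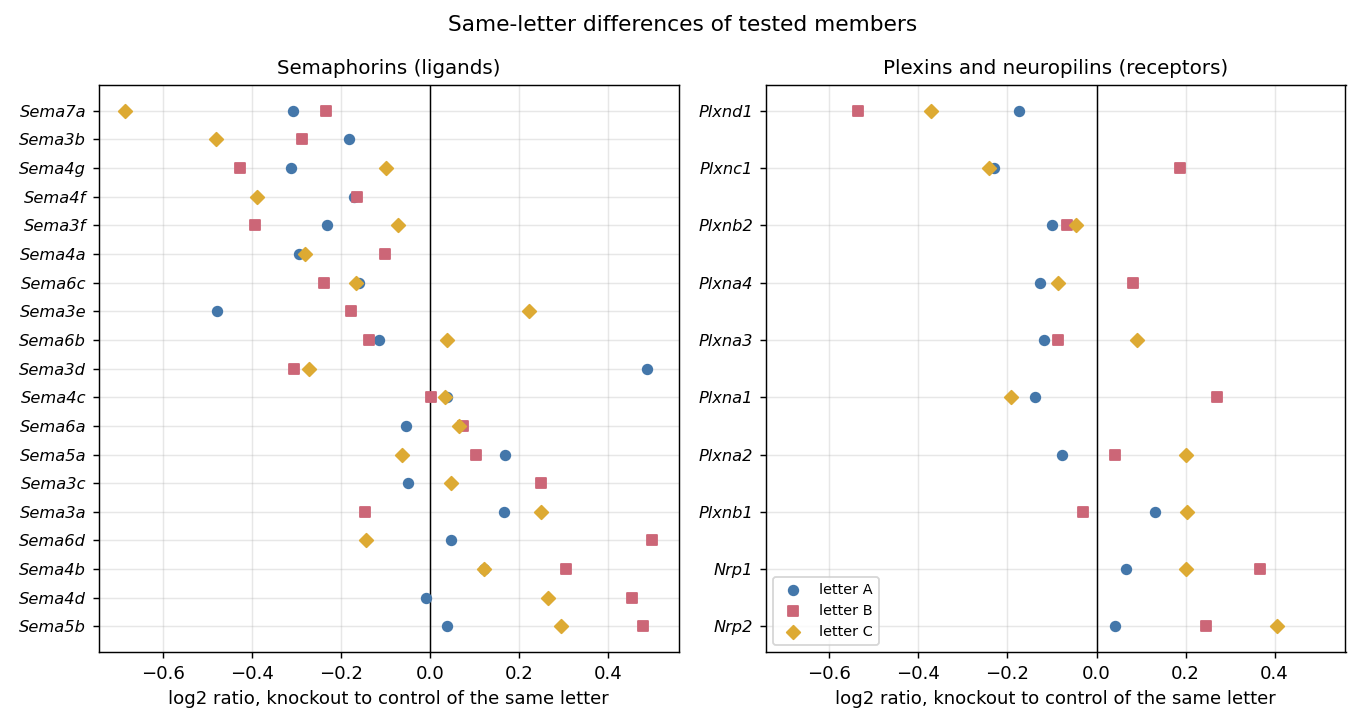
Log2 ratio of knockout to control CPM within each letter (0.5 CPM added to both) for the 29 tested members, with a marker for each letter. Sema7a and Plxnd1 are below 0 in all 3 letters and both neuropilins above 0. Letter B has the opposite sign to A and C for Plxna1, Plxna4 and Plxnc1 (B above 0) and for Plxnb1 and Sema3a (B below 0).

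Beyond ligands and receptors, 48 listed partners of the pathway were read from the same fit, 46 of them tested. They comprise co-receptors, CRMP and MICAL proteins that link plexins to the cytoskeleton, small GTPases with their regulators, kinases, adaptors and actin factors. None passed in the group-only fit, with DESeq2 or with the replicate block, and 2 of 46 had an unadjusted p under 0.05, both lower in the knockout, beside 7.00% of all genes (3.81% lower). Their median log2 change was -0.06, with 30 below 0 and 16 above, beside 49.8% of all genes below 0. The knockouts lay wholly below the controls for 5 partners (Met, Nrcam, Dpysl5, Rap1b and Cdk5) and wholly above for 1 (Rhod), where over all genes the shares were 6.28% and 5.89%.

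Met had the smallest p among the partners. It encodes the receptor of hepatocyte growth factor, which can associate with plexin B receptors. Met was at 33.0, 35.7 and 34.3 CPM in controls and 26.2, 26.4 and 27.3 CPM in knockouts. The groups were well apart and tight, with a log2 change of -0.36 ± 0.12, but the adjusted p was 0.486 (0.145 with the block). Rnd1, a GTPase that binds plexins, was at 124, 131 and 112 CPM against 118, 98.7 and 84.3 CPM (-0.28 ± 0.12, adjusted p = 0.686), and its estimate ran from -0.42 to -0.18 with 1 library left out. The L1-family adhesion co-receptors Chl1 and Nrcam had -0.21 ± 0.11 (from -0.28 to -0.11 with 1 library left out) and -0.20 ± 0.10, the plexin-regulated GTPase Rap1b -0.18 ± 0.10 and the receptor tyrosine kinase Erbb2 -0.54 ± 0.31. The CRMP phosphoproteins, which relay Sema3a signals, had a median of -0.14 over 5 genes, and the MICAL oxidases, which take actin filaments apart, one of -0.06 over 3.

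Of 14 listed pairs of a ligand and its receptor, the log2 changes had the same sign in 7 and opposite signs in 7. For Sema7a with Plxnc1 the log2 changes were -0.40 and -0.07, for Sema3e with Plxnd1 -0.12 and -0.37, and for Sema3f with Nrp2 -0.23 and 0.24. For Sema3a with Nrp1 they were 0.09 and 0.21, and for Sema4c with Plxnb2 0.02 and -0.07. Differences between the partners of a pair were not tested.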

How the data were processed

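RNA was measured in 6 libraries, 3 per genotype. Each deposited table holds unnormalised read counts by gene, as STAR's gene counter writes them. The submitters' processing notes name STAR 2.5.4, GRCm38 and mm10, and the labels' protocols a strand-specific Lexogen SENSE kit. The annotation release used for counting is not given in the sources used here. The column for the strand of the first read was used, which held 18.6 times the reads of the other strand. The multi-mapping line was 0 in each table, so reads that fit several copies are not counted. Of the reads listed, 26.1 to 27.7% were unmapped. Among mapped reads, 0.689 to 0.759% were ambiguous. Summary lines entered neither library sizes nor tests. Symbols, coordinates and exon lengths came from GENCODE M21, which holds 52403 of the 52550 identifiers.

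The genotypes were compared with edgeR 4.0.16 in R 4.3.3, after filterByExpr (14913 genes kept) and TMM scaling (factors 0.979 to 1.04), by its two-sided quasi-likelihood F-test with robust dispersion, using Benjamini-Hochberg adjustment over all genes at a threshold of 0.05. Each SE was taken as the absolute log2 change over the root of F. DESeq2 1.42.0 served as an alternative. The scripts were tested on simulated data. Members and lists were chosen with earlier results of these data known, so no test was made over a list. Values in every library are given for members that passed in either fit, for the 6 ligands and 6 receptors with the smallest p, and for the 3 of each with the highest level per kilobase. Sema3e, outside this rule, is given in every library beside its receptor. Of the partners, the 6 with the smallest p are named. Sema3e, Dpysl5, Cdk5, Rhod, Itgb1 and L1cam were named after their values were seen.

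The letters' meaning is not stated in the labels, and the series' design text calls the samples biological replicates without naming litters. As a check of pairing, each library's deviation from its group mean was correlated with the others over genes. Within letters A, B and C the correlation between the genotypes was 0.417, 0.342 and 0.211, and across letters it was at most -0.0310. With X-linked and Y-linked genes left out, these values were 0.393, 0.242 and 0.182, and at most 0.036 across letters. The pairing used in the fit with the replicate block thus comes from the data and not from the labels. Libraries were also compared for duplication, and the closest pair had a chi-square of 3.78 for each degree of freedom, above sampling noise.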

Additional observations from a re-analysis of the deposited data

How the results depend on the processing

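All 17 alternatives to the group-only fit were run, 13 planned and 4 (DESeq2 with the block, and the block without each letter) chosen after the data had been seen. The count over all genes, 5 in the group-only fit, was 126 with the replicate block, 228, 161 and 77 with the block without letters A, B and C, 26 with DESeq2 (25 with the block), 9 with upper quartile scaling, 71 without the filter on low counts, 2 without letter B in both genotypes, and 1 to 9 with 1 library left out. Ligands called were 0 in the group-only fit and 1 (Sema7a) in the paired fit and in the paired fits without letter A or without letter B. Partners called were 0, and 1 (L1cam) in the paired fit without letter B; receptors called were 0 in every setting run. The ligand median of -0.0228 ranged from -0.06 to 0.0269 with 1 library left out (highest without control B), and was 0.024 in the paired fit without letter A. The receptor median of -0.0219 ranged from -0.0875 to 0.0389. With upper quartile scaling both medians were 0.0153, beside 0.0383 for all genes. None of the members passed in the group-only fit, so to keep a side of the threshold was only to stay uncalled. Of 255 values for 15 members, 243 kept their direction and side of the threshold, 3 passed it (all Sema7a, above) and 9 changed sign. Plxna2 was -0.0659 without control C and -0.0184 paired without letter C, Plxna4 0.0147 without control B, 0.0482 without knockout C and 0.0031 paired without letter A, Plxnb1 -0.001 without knockout C, Plxnc1 0.036 and 0.0258 without knockouts A and C, and Sema4c -0.000693 without control A. At the other end of the single-library omissions these members reached 0.12, -0.158, 0.21, -0.291 and 0.0422. The replicate block changed the call of no other member than Sema7a. Counts of 4 to 98 per library limit Sema3b, Sema3d, Sema3e, Sema3g and Sema4d.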
